A study of Mus musculus with 6 samples.

Results

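The 10 genes described here encode transcription factors that direct dendritic cell (DC) development: Irf8, Irf4, Id2, Zeb2, Relb, Nfil3, Bcl6, Ikzf1, Bcl11a and Stat3. They were chosen by symbol, and all 10 were found once among the 21761 genes of the deposited table. Expression was measured by RNA-seq in 6 libraries of male C57BL/6J mouse bone marrow, 2 each from day 0, day 4 and day 7 of culture in medium with a supernatant that contained Flt3 ligand (Flt3L), secreted by transfected SP2/0 cells. The day 0 libraries II and III were marrow that had spent 0 days in culture, the day 4 libraries I and II carry the label common myeloid progenitor (CMP), and the day 7 libraries III and IV the label bone marrow derived DC (BMDC). At days 4 and 7 all live cells were taken, per the labels. Separate animals or cultures are not stated for the replicates. The p-values therefore cover the spread among 6 libraries, and that spread may be technical.

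DCs arise from marrow progenitors under Flt3L, whose receptor signals in part through STAT3, and split into plasmacytoid DCs and type 1 and type 2 conventional DCs. IRF8 is required for type 1 conventional DCs and IRF4 supports type 2. ID2 binds E proteins and keeps them from DNA, which opposes the plasmacytoid fate that the E protein TCF4 upholds, while ZEB2 and BCL11A support plasmacytoid DCs. Several of these factors also act in macrophages, B cells, neutrophils or natural killer cells, so their RNA does not by itself name a cell.

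Promoter sequences of Irf8, Id2 and Bcl6 are shown because Irf8 and Id2 were the members called higher at day 7 against day 4 and Bcl6 was highest at day 4. Each is the 250 bases before a transcription start, 5′ to 3′ on the gene's strand, from RefSeq on build GRCm38.p6 and matched by Entrez ID; the expression table rests on mm9, and no coordinate was carried between builds. Capitals mark matches on either strand to 5 motifs: the interferon response motif (GAAA, 2 bases of any kind, GAAA), the ETS-IRF composite (GGAA, 2 bases, GAAA), the STAT motif (TTC, 3 bases, GAA), the E-box (CACCTG) and the kB motif (GGGA, 4 bases, CC). The interferon response and ETS-IRF motifs can overlap each other.
Irf8, the first of its 2 listed starts (chr8:120736108-120736357, plus strand): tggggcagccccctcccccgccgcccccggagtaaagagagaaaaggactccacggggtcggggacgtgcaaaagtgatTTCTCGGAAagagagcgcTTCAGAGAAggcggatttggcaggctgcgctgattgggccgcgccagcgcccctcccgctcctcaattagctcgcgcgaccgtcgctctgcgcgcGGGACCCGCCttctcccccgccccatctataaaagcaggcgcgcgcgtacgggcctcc
Id2 (chr12:25096093-25096342, minus strand): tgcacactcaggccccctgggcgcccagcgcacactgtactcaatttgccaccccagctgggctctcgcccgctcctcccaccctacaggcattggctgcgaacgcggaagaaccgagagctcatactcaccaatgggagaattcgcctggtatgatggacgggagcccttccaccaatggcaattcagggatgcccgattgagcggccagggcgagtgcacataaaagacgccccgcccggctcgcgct
Bcl6, the second of its 2 listed starts (chr16:23981284-23981533, minus strand): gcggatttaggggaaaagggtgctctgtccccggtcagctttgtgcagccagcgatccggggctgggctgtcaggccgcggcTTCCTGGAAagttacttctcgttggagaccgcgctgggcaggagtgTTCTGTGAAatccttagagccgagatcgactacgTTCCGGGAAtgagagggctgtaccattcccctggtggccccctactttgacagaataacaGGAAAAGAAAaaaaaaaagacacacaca

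The Irf8 window shown held 2 STAT matches and 1 kB match, the Bcl6 window shown 3 STAT matches and 1 ETS-IRF match, and the Id2 window held none of the 5 motifs. The starts not shown held fewer matches, with 1 E-box match alone for Irf8 and 1 STAT match alone for Bcl6. Of 32851 promoter windows of this length, 7.02% held the STAT motif, 17.6% the kB motif, 17.2% the E-box, 2.98% the interferon response motif and 2.30% the ETS-IRF composite. A promoter was listed for 9 members with 15 starts, some of which overlap. The STAT motif was in 6 of the 15 windows, from 4 members (Irf8, Zeb2, Bcl6 and Bcl11a), and starts 2 and 3 of Zeb2 overlap and share their match. The kB motif was in 4 windows, also from 4 members (Irf8, Irf4, Ikzf1 and Bcl11a). The E-box and the ETS-IRF composite were in 1 window each and the interferon response motif in 0. Shares of windows and of members are not alike, since a member can have several windows. No window for Relb was in the table used. A match says only that these letters are present.

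Depth rose with the day, which limits the low genes at day 0. Reads in genes, read back from the table, numbered 322837 and 157797 in the day 0 libraries, 1365635 and 3852628 in the day 4 libraries, and 16149088 and 10951745 in the day 7 libraries. RPKM scales reads to exon length and to the total of the library. Odorant, vomeronasal and trace amine receptor genes, which marrow is not known to use, gave a background level, computed over 1452 genes. Another 3, which held 22.4 to 62.7% of all receptor reads, were set aside after the values were seen. With these 3 the receptor reads in the day 0 libraries II and III numbered 4930 and 2279, against 1838 and 1238 without, so the level would be higher. The day 0 libraries had a level of 3.28 and 4.52 RPKM, the day 4 libraries 3.41 and 0.630 RPKM and the day 7 libraries 0.0128 and 0.0142 RPKM. Values are set against it below, with exact Poisson 95% intervals that cover counting error only.

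The labelled cell types were set against marker lists. At day 7 all 10 macrophage markers were called higher than at day 4, against 5.85% of all tested genes. Their summed RPKM was 11327 and 12110 at day 7, against 228 and 141 at day 4. Cd74, which DCs and macrophages share, reached 1814 and 1932 RPKM at day 7. The 15 DC markers summed to 6117 and 6829 RPKM at day 7, against 687 and 445 RPKM at day 4, and 5 were called higher. These were Cst3, Cd74, H2-Ab1, H2-Aa and Bst2, which hold most of the day 7 sum. Cst3 had 2435 and 2864 RPKM, H2-Ab1 666 and 730 RPKM and H2-Aa 268 and 258 RPKM at day 7. Cd74 is shared with macrophages, and these data do not show that Cst3, H2-Ab1, H2-Aa or Bst2 is particular to DCs. Neither these calls nor the sum stand by themselves for DCs. The list gave mixed values at day 7. Low members were Zbtb46, a defining conventional DC gene, at 0.0288 and 0.0283 RPKM, Xcr1 at 0.528 and 0 RPKM, and Clec9a at 0.703 and 0 RPKM, the last 2 of type 1 conventional DCs, and Flt3 at 1.22 and 1.97 RPKM. Itgax, shared with macrophages, had 24.7 and 25.9 RPKM, Sirpa, also shared with them, 274 and 272 RPKM, and the type 2 conventional DC marker Cd209a 11.8 and 21.5 RPKM. Of the plasmacytoid DC markers Siglech had 5.44 and 8.22 RPKM, Ccr9 0.334 and 0.335 RPKM and Bst2, which interferon induces in many cells, 613 and 714 RPKM. At day 4, 8 neutrophil markers summed to 45005 and 32147 RPKM, and 8 progenitor markers to 1477 and 2024 RPKM. Of these Elane, a granule gene of early granulocytes, had 835 and 1119 RPKM, Mpo 447 and 641 RPKM, Kit 8.34 and 18.1 RPKM and Cd34 11.6 and 6.13 RPKM. The neutrophil sum was 195 and 206 RPKM at day 7, and it set the day 0 libraries II and III apart, with 59195 and 7282 RPKM. Erythroid markers summed to 32016 and 20022 RPKM at day 0, then to 1679 and 1826 RPKM and, by day 7, to 3.58 and 7.74 RPKM. In such mixed samples more cells of a type and more RNA per cell cannot be told apart, and the part of these cell types in the results was not tested.

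**Figure D1:**
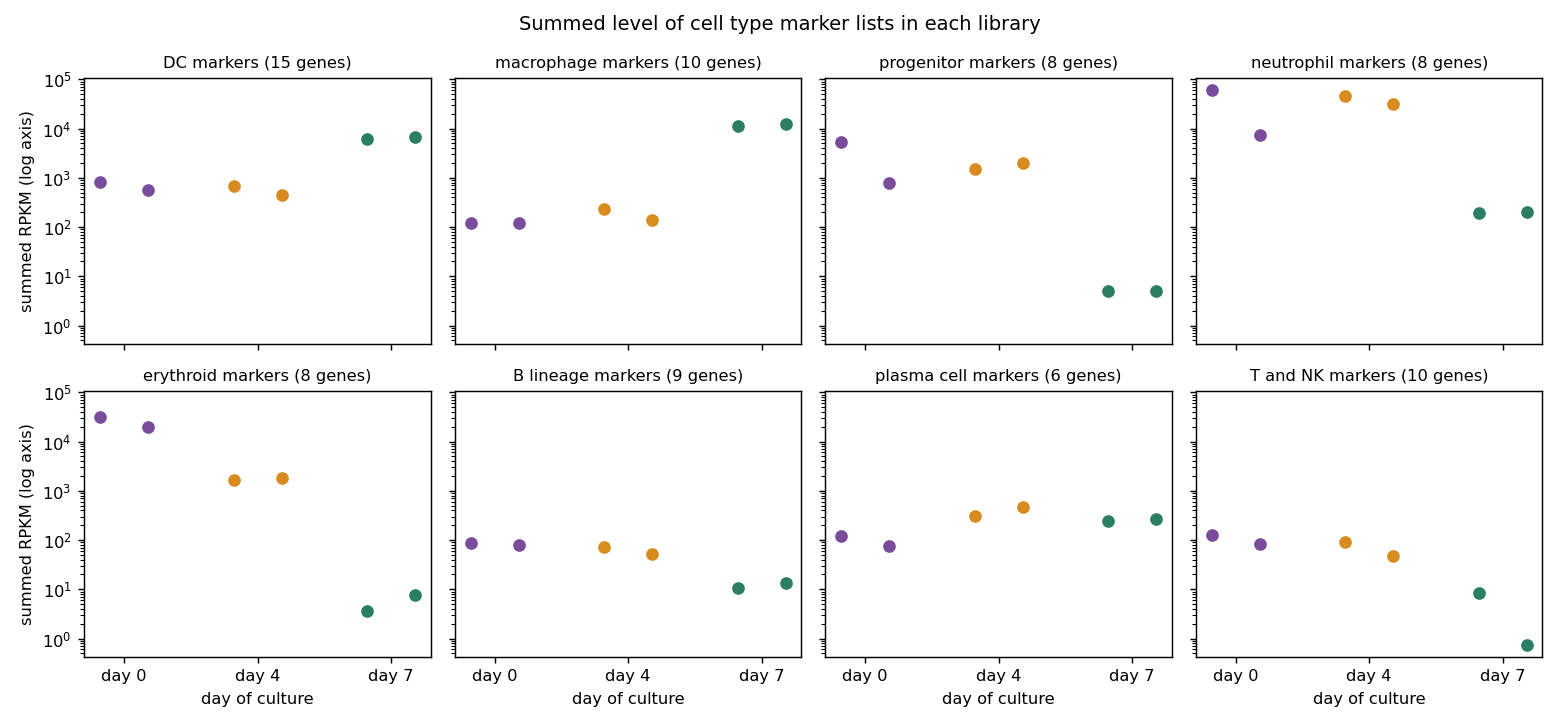
Summed RPKM (log axis) of 8 marker lists in each of the 6 libraries by day of culture, 1 point per library. Macrophage and DC sums are highest at day 7, neutrophil, progenitor and erythroid sums are lowest there, and the 2 day 0 libraries differ in neutrophil genes, at 59195 and 7282 RPKM. Most of the DC sum at day 7 is Cst3, Cd74, H2-Ab1, H2-Aa and Bst2.

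Genes were tested with limma on log2(RPKM + 1), which understates the change of low genes, over 19279 genes and with Benjamini-Hochberg adjustment; fold changes are log2 values on that scale, ± SE. At day 7 against day 4, Id2 and Irf8 rose and Bcl6, Ikzf1 and Stat3 fell. Thus 2 of 10 members were called higher, against 5.85% of all tested genes, and 3 lower, against 6.75% (12.6% in either direction). At day 4 against day 0 Bcl6 was called higher (1 of 10, against 3.66% of genes) and 0 were called lower (1.92% of genes were, 5.58% in either direction), with 3 lower at unadjusted p under 0.05. At day 7 against day 0, 4 of 10 were higher (Irf8, Id2, Zeb2 and Nfil3, against 11.3%) and 4 lower (Irf4, Ikzf1, Bcl11a and Stat3, against 29.3%, with 40.6% of genes in either direction). The libraries of both days did not overlap at day 7 against day 4 for 3 higher and 5 lower members (19.6% and 57.6% of genes), at day 4 against day 0 for 2 higher and 4 lower (17.9% and 33.3%), and at day 7 against day 0 for 5 higher and 4 lower (19.6% and 50.8%). The median fold change of the members was 0.19, 0.18 and 0.64 in the 3 comparisons as listed, beside medians of -0.81, -0.40 and -1.14 over all tested genes (0.038, -0.042 and -0.0065 under quantile normalization). After subtraction of the receptor level, with values below it set to 0, the median over all tested genes was 0 in each comparison. A gene below the level in every library of a comparison has a change of exactly 0 there. Quantile normalization gives all libraries the same distribution. The medians at or near 0 thus follow in part from the methods and do not measure the source of the shift. How far the general shift enters the value of a given gene was not tested. A fold change relative to the median of all tested genes is given for the members that fell. For the rises at day 7 against day 4 this relative value was larger than the fold change itself, 3.25 for Irf8 and 5.29 for Id2. The comparisons share libraries and are not independent. The shares of all tested genes called also apply as background to the counts of marker lists above and of related gene lists below. Each result was refitted in 14 alternative settings, which included median ratio scaling, quantile normalization, voom on recovered reads, thinning of every library to 157797 reads, subtraction of the receptor level and the omission of each library. The direction of the calls over all genes moved with the setting: in the 3 comparisons as listed 46.4, 65.6 and 27.9% of called genes were higher, against 50.6, 56.4 and 56.6% under quantile normalization, 18.7, 37.5 and 11.6% by voom and 60.4, 59.6 and 65.5% after subtraction. No call on a member changed its sign in any of the 14 settings.

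**Figure D2:**
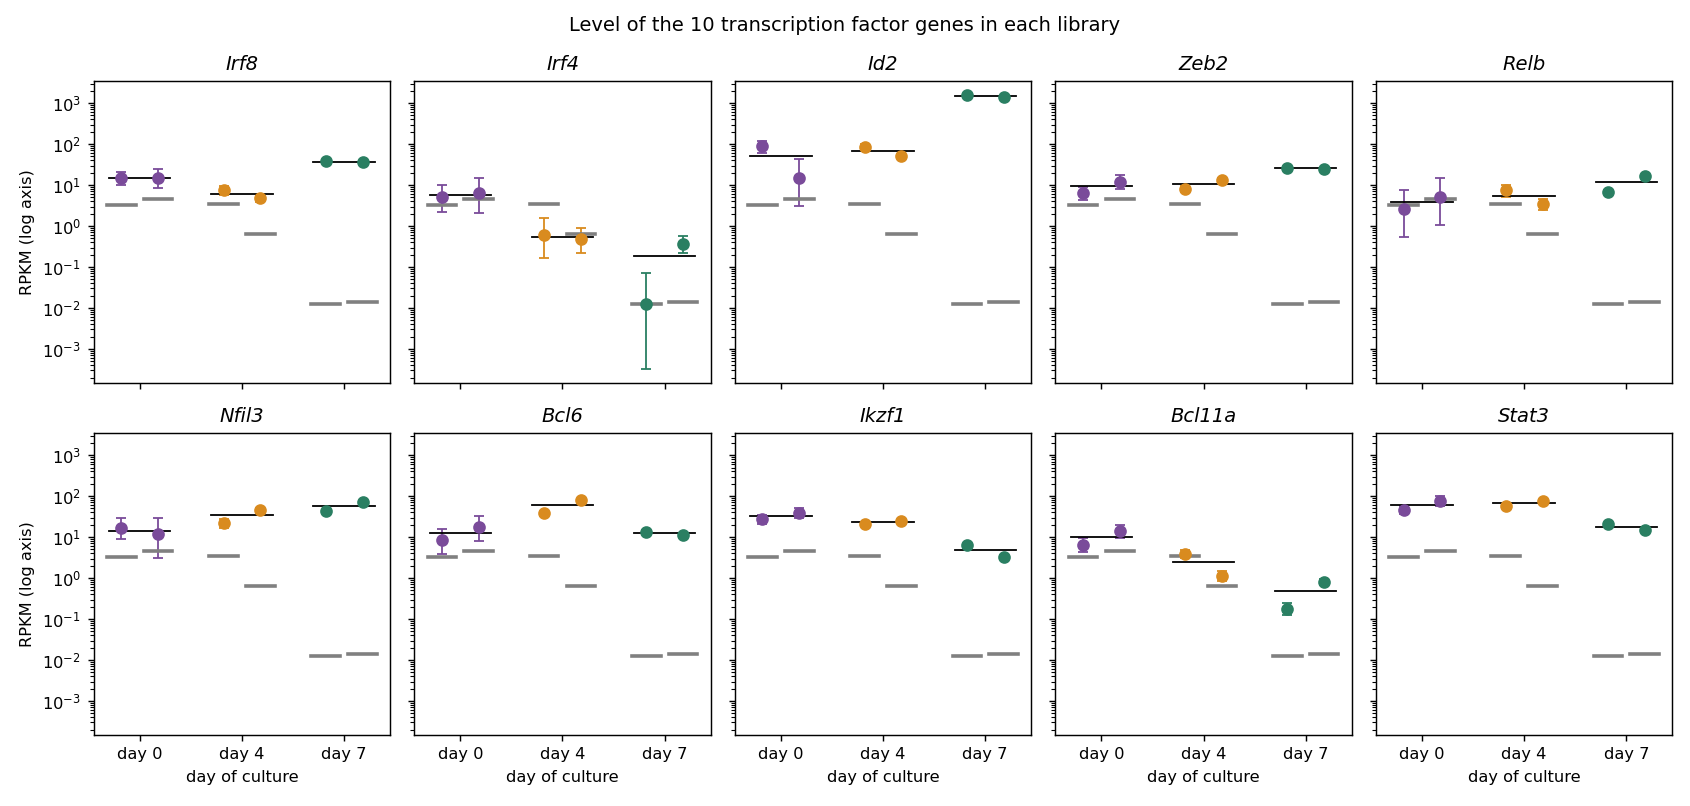
RPKM (log axis) of the 10 genes in each library by day of culture. Points are libraries with exact Poisson 95% intervals, thin black lines the mean of 2 libraries, and thick grey lines the receptor gene level of that library. Id2 reaches 1584 and 1438 RPKM at day 7, Irf8 is lowest and Bcl6 highest at day 4, and in 5 of 6 libraries the Irf4 interval meets or lies below the grey line.

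**Figure D3:**
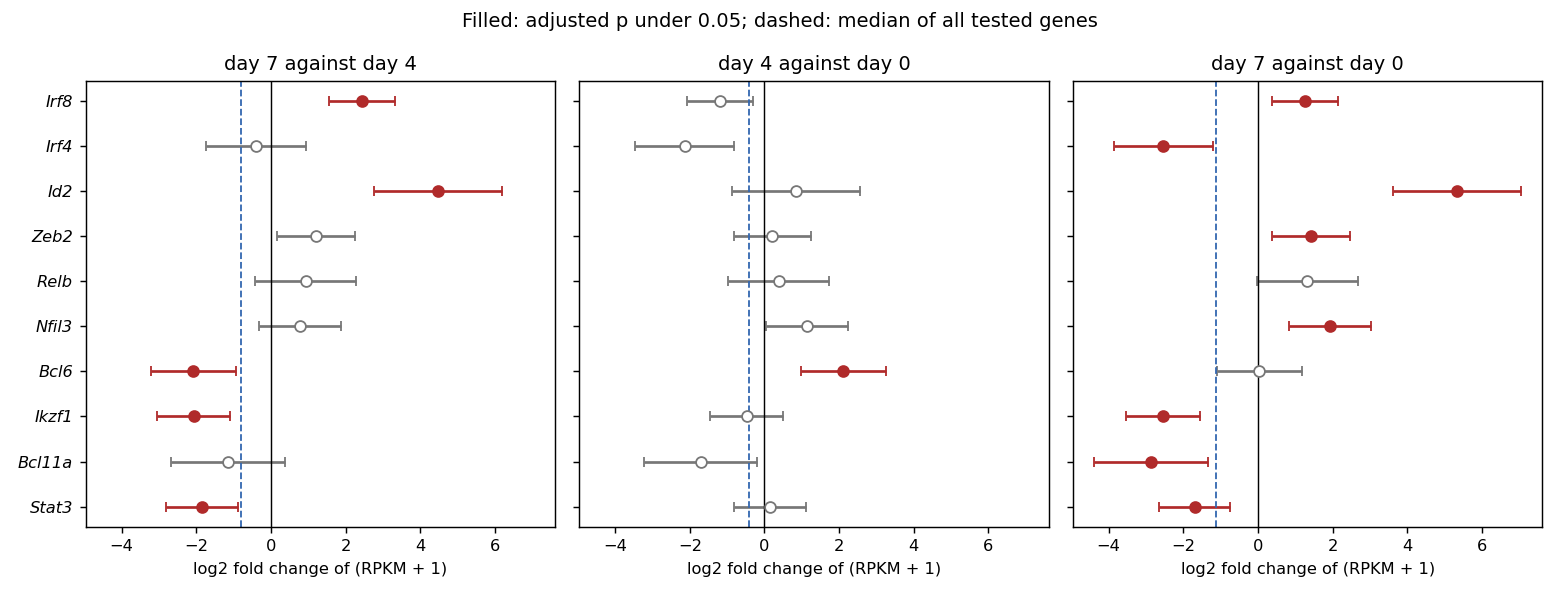
Log2 fold change of (RPKM + 1) of the 10 genes in the 3 comparisons, with limma 95% intervals. Filled points passed adjusted p under 0.05 and the dashed line is the median of all tested genes, at -0.81, -0.40 and -1.14. Id2 and Irf8 lie right of 0 and Bcl6, Ikzf1 and Stat3 left of it at day 7 against day 4.

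Irf8 (Entrez 15900), which directs type 1 conventional DCs and also acts in plasmacytoid DCs and monocytes, was lowest at day 4 and highest at day 7. The day 0 libraries had 14.9 and 15.2 RPKM (30 and 15 reads), the day 4 libraries 7.50 and 4.78 RPKM and the day 7 libraries 38.8 and 35.6 RPKM. No 2 days overlapped, and all 6 intervals lay above the receptor level of their library. It averaged 37.2 ± 2.29 RPKM at day 7, against 6.14 ± 1.93 RPKM at day 4 (SD, n = 2 here and below), a rise of 2.45 ± 0.38 (limma adjusted p = 0.0058). Against 15.05 ± 0.241 RPKM at day 0 the day 7 level was also higher (1.25 ± 0.38, adjusted p = 0.0343). The lower level at day 4 than at day 0 did not pass (-1.19 ± 0.38, adjusted p = 0.107), and passed once the receptor level was subtracted (-1.25, adjusted p = 0.0387). The day 7 against day 4 call was lost without day 4 library I or II (adjusted p = 0.0823 and 0.0554), without day 7 libraries III (0.0609) and IV (0.0577), each left out in turn, and after thinning (0.0669), with rises of 1.98 to 2.72 in these fits. Against day 0 it was lost without day 7 library III or IV (0.206 and 0.192), by voom (0.0851), and at a rise of 0.76 and 0.73 under quantile normalization (0.249) and thinning (0.210).

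Irf4 (Entrez 16364), the factor tied to type 2 conventional DCs, plasma cells and activated lymphocytes, was the least expressed member at days 4 and 7. Its day 0 values of 5.14 and 6.57 RPKM rested on 8 and 5 reads, with intervals of 2.22 to 10.1 and 2.13 to 15.3 RPKM that span the receptor level. It had 0.607 and 0.484 RPKM at day 4 (4 and 9 reads), below the receptor level of library I and spanning that of library II. At day 7 it had 0.0128 and 0.360 RPKM (1 and 19 reads). No 2 days overlapped, yet Irf4 was above the receptor level in 1 of the 6 libraries, day 7 library IV. It averaged 0.186 ± 0.245 RPKM at day 7, against 5.85 ± 1.01 RPKM at day 0, and was called lower (-2.54 ± 0.58, adjusted p = 0.0157), which is -1.40 relative to all genes. Since the day 0 values are within background, a loss of Irf4 RNA was not detectable at this depth. The call was lost without day 7 library III or IV (adjusted p = 0.157 and 0.133), under quantile normalization (-0.63, adjusted p = 0.43) and after thinning (0.0890). Values at day 7 against day 4 did not pass (-0.40 ± 0.58, adjusted p = 0.602), nor did those at day 4 against day 0 (-2.14 ± 0.58, adjusted p = 0.0698, but 0.0408 after subtraction).

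Per length, the level of Irf8 was above that of Irf4 in all 6 libraries. Only in day 7 library IV was Irf4 above the receptor level. In the other libraries the ratio rested on Irf4 reads not told from background, which the intervals given here do not cover. The ratio of the levels was 2.90 (exact 95% interval 1.30 to 7.31) and 2.32 (0.801 to 8.15, which includes 1) in the day 0 libraries II and III, and 12.4 (4.6 to 46.7) and 9.87 (5.02 to 22.1) in the day 4 libraries I and II. The day 7 libraries differed from each other, at 3027 (543 to 119595) in library III, with 1 read of Irf4, and 99.1 (63.3 to 165) in library IV, with 19 reads. Other family members were compared as a list. Irf5, a factor of Toll-like receptor signalling in macrophages and DCs, rose to 98.9 ± 3.69 RPKM at day 7, against 12.6 ± 3.75 RPKM at day 4 (2.91 ± 0.46, adjusted p = 0.00601). Of 7 other IRF genes, 1 was higher at day 7 against day 4, 0 were called at day 4 against day 0 (1 higher at unadjusted p under 0.05), and 2 were higher at day 7 against day 0. The second was Irf3, which drives type I interferon genes, at 13.7 ± 0.0558 RPKM on day 7, against 4.83 ± 3.35 RPKM on day 0 (1.46 ± 0.49, adjusted p = 0.0447). Its day 0 values of 7.20 and 2.45 RPKM were 6 and 1 reads, near the level of receptor genes. Among those not called, Irf2 had 25.1 ± 18.4, 16.5 ± 7.46 and 31.6 ± 11.5 RPKM at days 0, 4 and 7, and Irf7, the interferon factor of plasmacytoid DCs, 5.73 ± 0.0919, 29.1 ± 30.8 and 28.2 ± 3.86 RPKM. Day 4 library I held 50.9 RPKM of Irf7 and library II 7.36 RPKM.

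Id2 (Entrez 15902), the inhibitor of E proteins, had the largest change among the members. Levels were 87.7 and 14.9 RPKM in the day 0 libraries, 86.9 and 51.01 RPKM in those of day 4 and 1584 and 1438 RPKM in those of day 7. Days 0 and 4 overlapped, and both day 7 libraries lay far above all others. It ranked 38 and 49 among all genes in the day 7 libraries, against 600 and 1225 at day 4 and 407 and 3668 at day 0. The mean of 1511 ± 104 RPKM at day 7, against 69.0 ± 25.4 RPKM at day 4, gave a rise of 4.48 ± 0.75 (adjusted p = 0.00763). Against 51.3 ± 51.4 RPKM at day 0 the rise was 5.33 ± 0.75 (adjusted p = 0.00284), and that call held in 14 of 14 alternative settings. Day 0 library III rested on 3 reads (interval 3.08 to 43.7 RPKM) and decided the sign of day 4 against day 0, which was 0.85 ± 0.75 (adjusted p = 0.511) with all libraries, 2.08 when day 0 library II was left out (adjusted p = 0.0158) and -0.39 when library III was (adjusted p = 0.533). At day 7 against day 4 the call was lost without day 4 library I or II (adjusted p = 0.174 and 0.117), under quantile normalization (0.0819), after thinning (0.114) and after subtraction (0.103), with rises of 3.85 to 4.86.

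Id3 and Id1 rose as well, and no E protein gene was called higher. Id3, also an E protein inhibitor, had 499 ± 10.2 RPKM at day 7, against 16.9 ± 6.55 RPKM at day 4 (4.85 ± 0.44, adjusted p = 0.000585). Id1, of the same family, had 116 ± 15.8 RPKM at day 7, against 16.8 ± 3.57 RPKM at day 4, which did not pass (2.72 ± 1.02, adjusted p = 0.123). It passed against 6.80 ± 9.62 RPKM at day 0 (4.93 ± 1.02, adjusted p = 0.0116), a level that rested on 4 and 0 reads. Tcf3, which encodes the E proteins E12 and E47, fell to 6.17 ± 1.16 RPKM at day 4, against 24.4 ± 5.18 RPKM at day 0 (-1.82 ± 0.42, adjusted p = 0.0462). Tcf4, the E protein of plasmacytoid DCs, had 6.23 ± 3.03, 3.35 ± 0.0502 and 8.35 ± 0.474 RPKM at days 0, 4 and 7 and was never called (adjusted p of 0.173, 0.419 and 0.463), nor was Tcf12, another E protein, at 10.3 ± 7.26, 3.44 ± 0.58 and 6.94 ± 1.33 RPKM. In the list of 7 ID and E protein genes 1 was called higher at day 7 against day 4, 1 lower at day 4 against day 0, and 2 higher and 1 lower at day 7 against day 0.

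Zeb2 (Entrez 24136), a zinc finger repressor that plasmacytoid DCs, some type 2 conventional DCs and monocytes need, was highest at day 7. Day 0 values were 6.39 and 12.2 RPKM, day 4 values 7.96 and 13.7 RPKM and day 7 values 26.7 and 24.2 RPKM. Days 0 and 4 overlapped and day 7 lay above both. It averaged 25.5 ± 1.79 RPKM at day 7, against 9.30 ± 4.11 RPKM at day 0, and was called higher (1.42 ± 0.45, adjusted p = 0.0387). That call was lost without any 1 library but day 0 library III, at adjusted p of 0.0860 without day 0 library II, of 0.0684 and 0.0678 without one or the other day 4 library (I, II), and of 0.196 and 0.181 for the day 7 libraries (III, IV). It was also lost under quantile normalization (0.110), thinning (0.153), a fit of 4 libraries (0.0671) and, at a rise of 2.15, subtraction (0.110). At day 7 against day 4 it did not pass (1.21 ± 0.45, adjusted p = 0.124), though it did by voom (0.00699), in a fit of 4 libraries (0.0443) and without day 0 library II (0.0477), and day 4 against day 0 gave 0.22 ± 0.45 (adjusted p = 0.806). Its relative Zeb1 fell to 0.0242 ± 0.0343 RPKM at day 7, against 5.06 ± 2.15 RPKM at day 0 (-2.52 ± 0.64, adjusted p = 0.0205), with 7 and 0 reads at day 7 and a day 0 level near that of receptor genes.

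Relb (Entrez 19698), the NF-kB subunit of the alternative pathway that splenic conventional DCs need, averaged 3.90, 5.45 and 11.6 RPKM at days 0, 4 and 7. Its day 0 values of 2.56 and 5.24 RPKM were 3 reads each, with intervals spanning the receptor level. Values of 7.47 and 3.44 RPKM followed at day 4, and of 6.97 and 16.2 RPKM at day 7. Day 4 overlapped both other days, day 7 lay above day 0, and no comparison passed. Day 7 against day 4 gave 0.94 ± 0.59 (95% interval -0.42 to 2.29, adjusted p = 0.301), and day 4 against day 0 gave 0.38 ± 0.59 (-0.98 to 1.73, adjusted p = 0.729). Day 7 against day 0 gave 1.31 ± 0.59 (-0.04 to 2.67, adjusted p = 0.104), and passed after median ratio scaling (adjusted p = 0.0376), quantile normalization (2.34, adjusted p = 0.0387) and subtraction (3.16, adjusted p = 0.0476).

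In the NF-kB list of 7 other genes 0 were called at day 7 against day 4 (1 higher at unadjusted p under 0.05), 1 was higher at day 4 against day 0 and 2 at day 7 against day 0. Nfkbia, the inhibitor that NF-kB itself induces, rose to 436 ± 75.8 RPKM at day 4, against 98.1 ± 13.9 RPKM at day 0 (2.14 ± 0.45, adjusted p = 0.0357), and had 341 ± 44.5 RPKM at day 7 (1.79 ± 0.45 against day 0, adjusted p = 0.0201). Rela, the main subunit of the classical pathway, had 61.7 ± 11.6 RPKM on day 7, against 22.6 ± 11.0 RPKM on day 0 (1.48 ± 0.45, adjusted p = 0.0338). Nfkb1 and Rel did not pass, with 9.49 ± 1.05, 7.24 ± 1.87 and 20.8 ± 0.873 RPKM of Nfkb1 and 9.07 ± 2.43, 10.7 ± 3.08 and 6.12 ± 1.11 RPKM of Rel at days 0, 4 and 7.

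Nfil3 (Entrez 18030), a basic leucine zipper factor of type 1 conventional DCs and natural killer cells, had its lowest values at day 0. The day 0 libraries had 17.1 and 11.6 RPKM (12 and 4 reads), the day 4 libraries 22.2 and 46.7 RPKM and the day 7 libraries 43.9 and 71.9 RPKM. Day 0 lay below both later days, which overlapped each other. With 57.9 ± 19.8 RPKM at day 7, against 14.3 ± 3.83 RPKM at day 0, it was called higher (1.92 ± 0.48, adjusted p = 0.0193). That call was lost without day 7 library III or IV (adjusted p = 0.0582 and 0.153), under quantile normalization (0.161), by voom (0.108), after thinning (0.0882) and after subtraction (0.0812). The single steps gave 0.78 ± 0.48 at day 7 against day 4 (adjusted p = 0.288) and 1.14 ± 0.48 at day 4 against day 0 (adjusted p = 0.183). T and NK marker sums went the other way. They fell from 125 and 83.5 RPKM at day 0 to 92.4 and 46.8 RPKM by day 4. By day 7 they were 8.48 and 0.748 RPKM, when 6 and 8 of the 10 were at 0. Nkg7 was the largest part before day 7, at 91.4 (day 0 library II), 39.0 (day 0 library III), 49.5 (day 4 library I) and 43.1 RPKM (day 4 library II). The other listed genes had 0 to 6 reads each at day 0. Their fall cannot be told from that of the receptor level. The part of T and NK cells in the Nfil3 level was not tested.

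Bcl6 (Entrez 12053), a zinc finger repressor known from germinal centre B cells and type 1 conventional DCs, was highest at day 4. Levels were 8.49 and 17.4 RPKM in the day 0 libraries (9 reads each), 38.3 and 81.5 RPKM in those of day 4 and 13.5 and 11.5 RPKM in those of day 7. Both day 4 libraries lay above the other 4, and day 7 lay within the day 0 range. The level fell to 12.5 ± 1.42 RPKM at day 7, against 59.9 ± 30.5 RPKM at day 4 (-2.08 ± 0.50, adjusted p = 0.0308), or -1.27 relative to all genes. It rose at day 4 against 12.9 ± 6.28 RPKM at day 0 (2.11 ± 0.50, adjusted p = 0.049), while day 7 against day 0 gave 0.03 ± 0.50 (95% interval -1.11 to 1.17, adjusted p = 0.971). The rise held in 2 of 14 alternatives, and adjusted p ran to 0.286, with 0.0651 when day 0 library II was left out, 0.0843 and 0.286 for the day 4 libraries (I, II), and 0.0832 and 0.0817 for the day 7 libraries (III, IV). The fall held in 6 of 14 and was lost without day 4 library I or II (adjusted p = 0.132 and 0.141) or day 7 library III or IV (0.113 and 0.177), and under median ratio scaling (0.0506), quantile normalization (0.0747), thinning (0.177) and subtraction (0.162). Neutrophil markers summed to 195 and 206 RPKM on day 7, against 45005 and 32147 RPKM on day 4. At day 0 the neutrophil sum was 59195 RPKM in library II and 7282 RPKM in library III. The Bcl6 intervals of these libraries, on 9 reads each, overlapped, at 3.88 to 16.1 RPKM in II and 7.94 to 33.0 RPKM in III. The part of these cells in the Bcl6 level was not tested.

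Ikzf1 (Entrez 22778) encodes Ikaros, a zinc finger factor of lymphoid and plasmacytoid DC development. Day 0 values were 27.1 and 38.4 RPKM, day 4 values 21.02 and 24.8 RPKM and day 7 values 6.51 and 3.28 RPKM. No 2 days overlapped and day 7 was lowest. The level fell to 4.89 ± 2.29 RPKM at day 7, against 22.9 ± 2.67 RPKM at day 4 (-2.07 ± 0.43, adjusted p = 0.0179), or -1.26 relative to all genes, while day 4 against 32.7 ± 7.98 RPKM at day 0 did not pass (-0.48 ± 0.43, adjusted p = 0.515). Against day 0 the fall at day 7 was -2.55 ± 0.43 (adjusted p = 0.0057), or -1.42 relative to all genes, and was lost in 1 of 14 alternatives, without day 7 library IV (adjusted p = 0.0564). The fall against day 4 was lost without day 4 library I or II (0.161 and 0.0989), without day 7 library IV (0.18), under quantile normalization (0.0666), thinning (0.0692) and subtraction (0.0795).

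Bcl11a (Entrez 14025), a zinc finger factor of plasmacytoid DCs, B cells and early progenitors, was lowest at day 7. The day 0 libraries had 6.48 and 14.2 RPKM (28 and 30 reads), the day 4 libraries 3.94 and 1.14 RPKM and the day 7 libraries 0.180 and 0.805 RPKM. No 2 days overlapped, and the interval of day 4 library I, 3.08 to 4.96 RPKM, spanned the receptor level. With 0.493 ± 0.442 RPKM at day 7, against 10.3 ± 5.46 RPKM at day 0, it was called lower (-2.87 ± 0.66, adjusted p = 0.0161), or -1.73 relative to all genes. The call was lost without day 0 library III (adjusted p = 0.0549), on omission of day 7 library III or IV (0.118 and 0.0866), under quantile normalization (-1.63, adjusted p = 0.119), thinning (0.0558) and subtraction (0.119). Neither step passed alone, at -1.16 ± 0.66 for day 7 against day 4 (adjusted p = 0.268, but 0.00818 by voom) and -1.71 ± 0.66 for day 4 against day 0 (adjusted p = 0.158). B lineage markers summed to 87.2 and 78.2 RPKM at day 0 and to 71.4 and 52.7 RPKM by day 4, where Bcl11a averaged 2.54 ± 1.98 RPKM. By day 7 the markers summed to 10.5 and 13.1 RPKM. Cd79b held most of that sum, at 6.67 and 12.5 RPKM (129 and 164 reads). Pax5, a defining B cell factor, was at 0 in both day 7 libraries, but had only 2 reads in each day 0 library. The part of B lineage cells in the Bcl11a level was not tested.

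Stat3 (Entrez 20848), which carries signals of the Flt3L, G-CSF and IL-6 receptors, was lowest at day 7. Levels were 46.2 and 75.9 RPKM in the day 0 libraries, 56.5 and 76.8 RPKM in those of day 4 and 21.2 and 14.6 RPKM in those of day 7. Days 0 and 4 overlapped and day 7 lay below both. The level fell to 17.9 ± 4.66 RPKM at day 7, against 66.6 ± 14.4 RPKM at day 4 (-1.85 ± 0.42, adjusted p = 0.0246), or -1.04 relative to all genes. Against 61.05 ± 20.99 RPKM at day 0 it also fell (-1.70 ± 0.42, adjusted p = 0.0189), or -0.56 relative to all genes, whereas day 4 against day 0 gave 0.15 ± 0.42 (95% interval -0.80 to 1.11, adjusted p = 0.857). The fall against day 4 was lost without day 4 library I or II (adjusted p = 0.158 and 0.115), on omission of day 7 library III or IV (0.0885 and 0.233), under quantile normalization (0.0674), thinning (0.126) and subtraction (0.0846). Against day 0 it was lost without day 4 library I (0.0503), on omission of day 7 library III or IV (0.0779 and 0.162), after thinning (0.06) and after subtraction (0.0718).

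Of 10 other STAT family and target genes 1 was called higher and 1 lower in each comparison. Pim1, a kinase gene that STAT factors can induce, fell to 3.75 ± 1.55 RPKM at day 4, against 21.9 ± 1.5 RPKM at day 0 (-2.31 ± 0.39, adjusted p = 0.0203), and rose to 116 ± 16.6 RPKM at day 7 (4.66 ± 0.39 against day 4, adjusted p = 0.000449). Stat6, which carries IL-4 signals, rose to 164 ± 21.9 RPKM at day 4, against 32.7 ± 19.7 RPKM at day 0 (2.42 ± 0.47, adjusted p = 0.0291). Stat4, which carries IL-12 signals, fell to 0.795 ± 0.678 RPKM at day 7, against 6.66 ± 2.53 RPKM at day 4 (-2.11 ± 0.56, adjusted p = 0.0436). Stat5b did not pass, with 13.9 ± 6.00, 15.3 ± 4.49 and 7.85 ± 1.67 RPKM at days 0, 4 and 7.

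Other DC factors were compared by list. Of 9 conventional DC factor genes 1 was higher at day 7 against day 4 (against 5.85% of all tested genes) and 1 lower at day 4 against day 0 (1.92%). At day 7 against day 0, 2 were higher (11.3%) and 3 lower (29.3%). Klf4, a factor of monocytes and some type 2 conventional DCs, was lowest at day 4 as Irf8 was, with 20.2 ± 12.7, 1.65 ± 0.0451 and 72.0 ± 15.3 RPKM at days 0, 4 and 7 (4.77 ± 0.49 for day 7 against day 4, adjusted p = 0.000986, and -2.85 ± 0.49 for day 4 against day 0, adjusted p = 0.0209). Spi1, which encodes PU.1, the partner of IRF8 and IRF4 on composite sites, had 253 ± 12.1 RPKM on day 7, against 70.2 ± 32.1 RPKM on day 0 (1.91 ± 0.47, adjusted p = 0.0189), with 251 ± 47.5 RPKM at day 4. Notch2 fell to 2.27 ± 0.72 RPKM at day 7, against 16.8 ± 8.96 RPKM at day 0 (-2.36 ± 0.52, adjusted p = 0.0143), and Zbtb46 to 0.0285 ± 0.000345 RPKM, against 3.65 ± 1.77 RPKM at day 0 (-2.12 ± 0.72, adjusted p = 0.0462), a day 0 level of 5 reads per library near that of receptor genes. The third gene called lower, Zfp366, a factor of conventional DCs, had 0 reads in both day 7 libraries and 3 and 1 in those of day 0. Rbpj and Batf did not pass, and neither did Batf3, the type 1 conventional DC partner of IRF8, named after its values were seen, at 5.13 ± 0.0823, 1.01 ± 1.12 and 5.01 ± 1.79 RPKM at days 0, 4 and 7. Its reads numbered 2 and 1 at day 0 and 3 and 1 at day 4.

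Spib, an ETS factor of plasmacytoid DCs and B cells, fell to 1.32 ± 0.203 RPKM at day 7, against 10.7 ± 0.967 RPKM at day 0 (-2.33 ± 0.50, adjusted p = 0.013). Its day 0 level rested on 9 and 5 reads. Runx2, which plasmacytoid DCs use for their exit from marrow, had 6.85 ± 3.69, 7.88 ± 1.1 and 3.23 ± 1.48 RPKM at days 0, 4 and 7 and did not pass. Of 7 zinc finger relatives of the members 3 were lower at day 7 against day 0, where 29.3% of all tested genes were. In either step 0 were called, with 2 lower at unadjusted p under 0.05 at day 7 against day 4 and 1 at day 4 against day 0. Beside Zeb1 they were Ikzf3, which encodes Aiolos, with 0 reads in both day 7 libraries and 4 in each day 0 library, and Bcl6b, with 0 reads at day 7 and 4 and 3 at day 0. These rest on few reads at a day 0 level near background. Ikzf5, another Ikaros relative, had 17.6 ± 15.9, 9.96 ± 3.13 and 5.06 ± 0.137 RPKM, and Ikzf2 2.68 ± 1.92, 3.35 ± 1.86 and 0.633 ± 0.0998 RPKM, and neither passed.

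**Figure D4:**
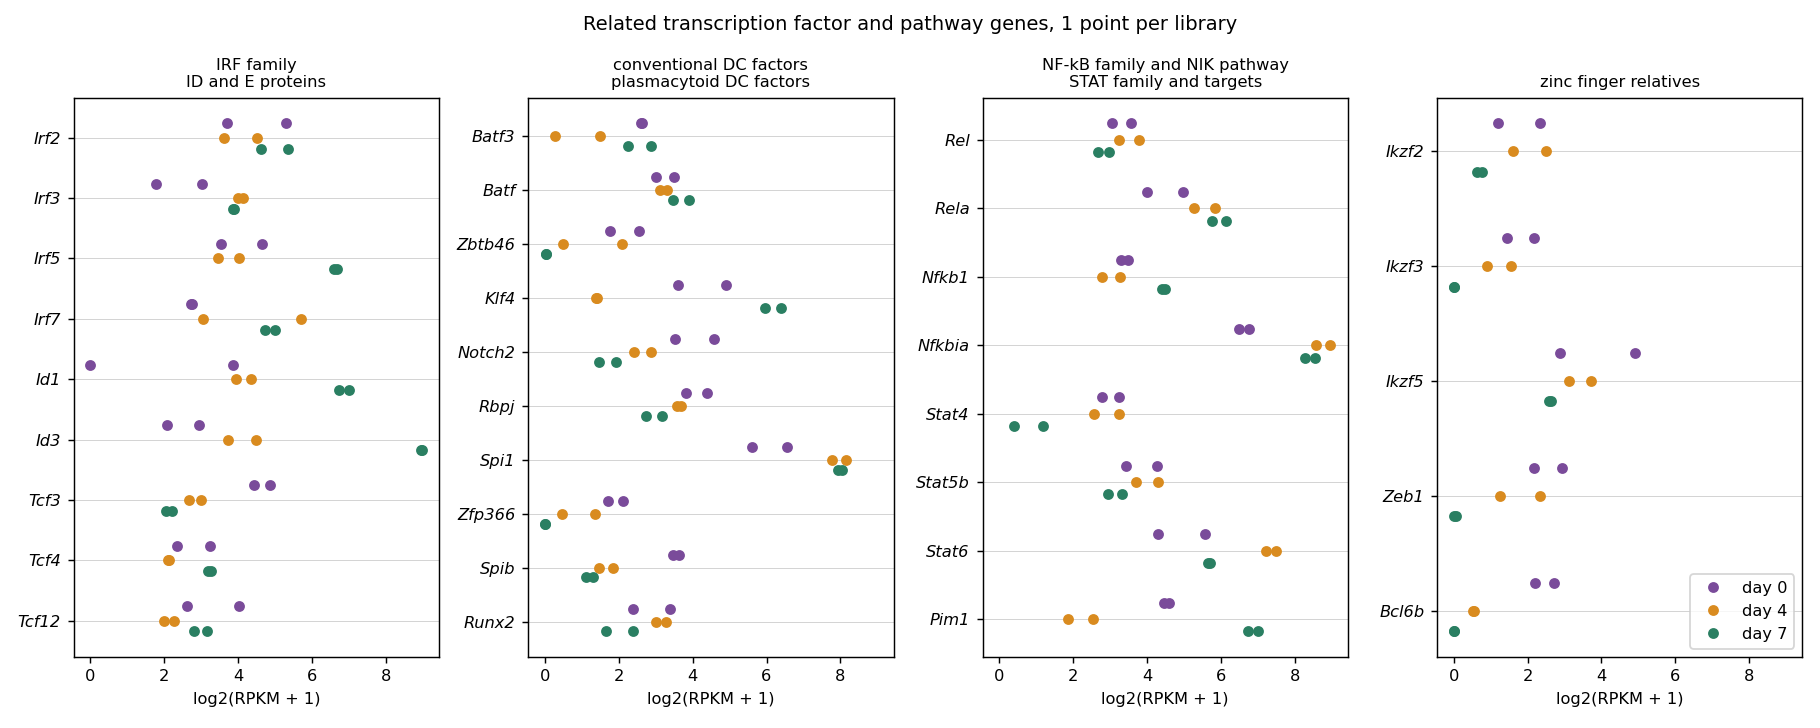
Levels of the related genes named in the text, as log2(RPKM + 1), 1 point per library, coloured by day of culture. At day 7 Id1, Id3, Irf5, Klf4 and Pim1 lie right of their day 4 points, while Zbtb46, Zfp366, Ikzf3, Zeb1 and Bcl6b lie at or near 0.

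Likeness between profiles was measured as the root mean square difference of log2(RPKM + 1) over the 6 libraries after each gene was centred on its mean, as a description only. Among members the nearest pair was Ikzf1 and Stat3, at 0.38, followed by Irf4 and Bcl11a at 0.49 and Zeb2 and Nfil3 at 0.60. The candidates were 7717 genes (7718 for Irf4) that averaged 5 RPKM or more. Nearest to Irf8 were Ccdc53 at 0.10, Polr2f, an RNA polymerase subunit, at 0.10 and Dnmt3a, a DNA methyltransferase, at 0.14. Nearest to Id2 were Atp5g2, an ATP synthase subunit, at 0.32, Romo1 at 0.34 and Cd72, a B cell and myeloid surface protein, at 0.36. Nearest to Irf4 were Tal1, an erythroid and stem cell factor, at 0.18, Gpsm2 at 0.19 and Eif4ebp2 at 0.20. Depth and background level differ between days and also between the libraries of a day, and both enter each of these distances.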

How the data were processed

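Total RNA came from a Qiagen RNeasy column, and cDNA from a SMARTer kit for low input went into NexteraXT libraries, per the labels' protocols. The deposited table gives RPKM per gene and library with exon length, per the file headers. The submitters' processing notes list mm9 as the build and TopHat2 2.0.13 and SAMtools 1.1 as tools, with no order. Which program counted reads, on which annotation and with which strand setting is not given in the sources used here, so reads of overlapping antisense genes cannot be separated.

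RPKM times length came out as whole reads in every library (largest distance 5.41e-05 of a read), which gave read totals, floors of 3 reads (9.29 to 19.01 RPKM at day 0 for a gene of 1 kb) and exact Poisson 95% intervals. Intervals cover counting error only, since PCR copies are not independent molecules. Genes with at least 1 RPKM in at least 2 libraries (19279) were fitted as 3 group means on log2(RPKM + 1) by lmFit and eBayes (with trend) of limma 3.58.1 under R 4.3.3, two-sided, called at adjusted p under 0.05. The fit has 3 residual and a median of 5.22 prior degrees of freedom and assumes 1 spread for all days. With 2 libraries a group an exact permutation test cannot pass. Ratio intervals of reads were exact (Clopper-Pearson), per library. The script was tested on simulated data.

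Alternatives were a pseudocount of 0.1, no filter, median ratio scaling, quantile normalization, voom on recovered reads, thinning to 157797 reads, the 4 libraries of a comparison, each library left out and, added after seeing the data, subtraction of the receptor level. Named relatives were, for each list, the called genes (up to 4 by mean RPKM) and up to 2 uncalled genes with the highest mean RPKM. Some genes that this rule or the lists hold are not reported here. The members and lists were chosen with earlier results of these data known. Listed markers Ly6g, Emr1, Ighm and Igj were not analysed here. Plots were drawn with matplotlib 3.10.9.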

Additional observations from a re-analysis of the deposited data

How the results depend on the processing

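The depth at day 0 limits the low members most: Irf4 and Relb in both libraries, and Id2 and Nfil3 in library III, had intervals that reach the receptor level. The fit shares 1 spread across days, so where a library is left out the lone library of its day is assumed to vary like the others. No paired analysis was possible because the groups compared share fewer than 2 replicate numbers (II and III at day 0, I and II at day 4, III and IV at day 7).

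Counts stand in the order of the report (day 7 against 4, 4 against 0, 7 against 0), and the cause of each change was not tested. All genes called numbered 2428, 1075 and 7832. They became 3996, 535 and 9080 with a pseudocount of 0.1, 2109, 799 and 7078 without a filter, 2760, 1102 and 8251 under median ratio scaling, 978, 1265 and 2141 under quantile normalization, 12788, 309 and 11488 by voom, 800, 1773 and 3701 after thinning, 3921, 529 and 7398 with 4 libraries, and 1193, 1112 and 2645 after subtraction. Leaving out 1 library gave 0 to 4120, 0 to 2397 and 1173 to 9200. With only 1 day 4 library, II or I, limma found 0 genes past the threshold in either comparison with day 4, with 4062 and 7160 genes at unadjusted p under 0.05 at day 7 against day 4 and 6499 and 3437 at day 4 against day 0.

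Members called higher numbered 2, 1 and 4. They were 2, 0 and 4 with a pseudocount of 0.1 and without a filter, 2, 1 and 5 under median ratio scaling, 1, 0 and 2 under quantile normalization, 3, 0 and 2 by voom, 0, 0 and 1 after thinning, 3, 0 and 3 with 4 libraries, and 1, 0 and 3 after subtraction, and ran over 0 to 3, 0 to 1 and 1 to 4 with 1 library left out. Members called lower numbered 3, 0 and 4. They were 3, 0 and 4 with a pseudocount of 0.1, without a filter and with 4 libraries, 2, 0 and 4 under median ratio scaling, 0, 0 and 2 under quantile normalization, 4, 0 and 4 by voom, 0, 0 and 1 after thinning and 0, 2 and 2 after subtraction, and ran over 0 to 3, 0 to 0 and 0 to 4 with 1 library left out.

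The sign turned for 6 results, none of them called. Irf4 at day 7 against day 4 was 0.84 under quantile normalization and 0.21 after subtraction. Bcl6 at day 7 against day 0 was -0.046 under quantile normalization and -0.17 after thinning, and ran over -0.45 to 0.51 with 1 library left out. At day 4 against day 0 Stat3 was -0.68 under quantile normalization and -0.18 after thinning, and Zeb2 was -0.080 after thinning. With 1 library left out, day 4 against day 0 ran over -0.20 to 0.50 for Stat3, -0.20 to 0.63 for Zeb2, -0.088 to 0.85 for Relb and -0.39 to 2.08 for Id2. All other refits of the members kept their direction: 315 also kept their side of the threshold, 79 lost the call and 10 gained it.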
